A study of Mus musculus with 2 samples.

Results

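10 genes of neutrophil granules and alarmins were followed across tumour-infiltrating cells: S100a8, S100a9, Lcn2, Mmp8, Mmp9, Ltf, Camp, Ngp, Retnlg and Wfdc21. They were chosen by symbol, with no measured value in the rule but with earlier results of these data known. They make up 10 of the 31053 genes in the expression matrix, and each symbol matched exactly 1 gene. The measurements came from single-cell RNA sequencing of live CD45+ cells sorted from subcutaneous B16 melanomas of 8-week-old C57BL/6 mice. The library labelled WT came from Mettl3 fl/fl Lyz2+/+ mice, the Cre-negative controls, and the library labelled KO from Mettl3 fl/fl Lyz2cre/+ mice, so that both genotypes carried the floxed Mettl3 alleles. Cre was driven by the Lyz2 locus, which is active in monocytes, macrophages and most granulocytes, so the granulocytes described here are themselves a target of the deletion. Each genotype was 1 library of cells pooled from several mice, which left no replicate and no test between genotypes: all intervals given here are 95% intervals and cover counting error only.

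Neutrophils store their antimicrobial proteins in granules that are filled in sequence during maturation in the bone marrow. Azurophil granules are made first, specific granules (lactoferrin, cathelicidin, lipocalin 2) next, and gelatinase granules (Mmp9) last, so the mRNA of the earlier contents is largely gone once the cell has left the marrow. S100a8 and S100a9 form calprotectin, a cytosolic heterodimer that sequesters metal ions and acts as an alarmin when released, and their mRNA stays abundant in mature neutrophils.

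The members lie on several chromosomes of the mouse genome (GRCm38, GENCODE M21), and all are protein coding. S100a8 (chr3:90668978-90670035, plus strand) and S100a9 (chr3:90692632-90695721, minus strand) are neighbours in opposite orientation. Camp (chr9:109847379-109849617, minus strand), Ngp (chr9:110419747-110423012, plus strand) and Ltf (chr9:111019271-111042767, plus strand) lie near each other on chromosome 9, which also carries Mmp8 (chr9:7558456-7568485, plus strand). Lcn2 (chr2:32384633-32388252, minus strand) and Mmp9 (chr2:164940780-164955850, plus strand) are on chromosome 2, Retnlg (chr16:48872621-48874496, plus strand) on chromosome 16 and Wfdc21 (chr11:83746940-83752642, plus strand) on chromosome 11.

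Promoters from RefSeq (GRCm38.p6) were matched for 8 of the 10 members, without Mmp9 and Wfdc21. The 150 bases before the RefSeq start are printed for the calprotectin pair, whose levels ran in parallel, and for Ltf and Ngp, all 5′ to 3′ on the gene's strand. In the library labelled KO the UMIs of Ltf and Ngp came mostly from the same 2 cells, as did those of Camp, which is not printed. Some GENCODE transcripts of S100a8, Ltf and Ngp begin inside the printed window. Capitals mark the letters TTNNGNAA (a C/EBP-type motif), GAGGAA (a PU.1-type motif) and TATAAA on either strand.
S100a8, chr3:90668921-90669070, plus strand: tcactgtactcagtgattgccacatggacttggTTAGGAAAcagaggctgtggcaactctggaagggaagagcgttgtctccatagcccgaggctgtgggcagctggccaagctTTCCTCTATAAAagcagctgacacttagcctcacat
S100a9, chr3:90695722-90695871, minus strand: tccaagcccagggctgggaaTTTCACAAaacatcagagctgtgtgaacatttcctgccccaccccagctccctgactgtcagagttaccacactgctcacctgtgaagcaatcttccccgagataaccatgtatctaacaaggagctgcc
Ltf, chr9:111019142-111019291, plus strand: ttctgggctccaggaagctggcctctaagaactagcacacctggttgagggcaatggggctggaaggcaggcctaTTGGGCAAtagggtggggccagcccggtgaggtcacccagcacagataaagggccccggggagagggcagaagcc
Ngp, chr9:110419658-110419807, plus strand: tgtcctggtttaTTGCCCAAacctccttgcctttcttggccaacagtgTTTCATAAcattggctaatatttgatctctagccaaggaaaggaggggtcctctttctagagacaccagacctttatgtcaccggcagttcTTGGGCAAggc
The C/EBP-type letters were found in 5 of the 8 members' windows (S100a8, S100a9, Mmp8, Ltf and, at 3 positions, Ngp) and in 22.7% of the same window of all 32851 promoters in the table. GAGGAA was found in 2 of 8 (S100a8 and Lcn2) against 14.5% of all promoters, and TATAAA in 1 of 8 (S100a8, next to the GAGGAA match, starting 30 bases before the start) against 7.57%. Camp and Retnlg had none of these motifs and Lcn2 had no C/EBP-type match, while every printed window has one. These are matches of letters and not measured sites.

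The library labelled WT held 5405 kept cells with a median of 4148 UMIs (unique molecular identifiers, each a counted mRNA molecule), and the library labelled KO held 7625 with a median of 3567. Mettl3 itself stood in macrophages at 9.86 counts per 1000000 UMIs (CPM) labelled WT (8.48 to 11.4) against 10.9 labelled KO (9.44 to 12.6), and in gated granulocytes it had only 5 and 3 UMIs. Counting at the 3′ end can still count a transcript that lacks the deleted exons, so these values check neither the deletion nor the labels, and the libraries are named by their labels throughout. Lyz2, into which Cre is inserted, was at 5777 CPM in macrophages labelled WT and 2656 CPM in those labelled KO. The libraries shared 13 barcode sequences.

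Granulocytes were gated with 8 marker genes, none of them a member. This gave 540 granulocytes labelled WT (9.99% of kept cells, 9.20 to 10.8) and 245 labelled KO (3.21%, 2.83 to 3.63), with a median of 1284 and 1039 UMIs per cell, the shallowest of the larger classes. All 8 markers were seen in both libraries, at a summed 9071 and 8009 CPM, while the 8 macrophage markers summed to 668 and 565 CPM and the 7 markers of basophils and mast cells to 2.65 and 0 CPM. Higher labelled KO were the summed markers of monocytes (303 and 353 CPM), melanoma cells (110 and 161) and conventional dendritic cells (31.8 and 97.5). The same held for T cells (21.2 and 26.9 CPM) and NK cells (0 and 13.4). Against all other gated and ungated cells, 3 of the 10 genes with the highest fold in granulocytes were gate markers (Stfa2l1, G0s2 and Cxcr2) and 5 were members (Retnlg, S100a9, S100a8, Wfdc21 and Lcn2). Cells with at least 3 granulocyte markers and at least 3 markers of another class were set aside as mixed cells, 290 labelled WT and 260 labelled KO, with medians of 10336 and 8455 UMIs.

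The members were concentrated in granulocytes in both libraries. Gated granulocytes held 66.5% of all member UMIs in the library labelled WT and 65.8% in the library labelled KO, and mixed cells held a further 30.3% and 24.3%. In granulocytes the 10 genes together made up 16.4% of all UMIs labelled WT (123473 of 755006) and 13.4% labelled KO (39895 of 297419). This difference was a log2 ratio of KO over WT of -0.29 (-0.30 to -0.27). It was -0.04 when every cell was thinned to 1000 UMIs, which left 410 and 129 granulocytes.

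**Figure D1:**
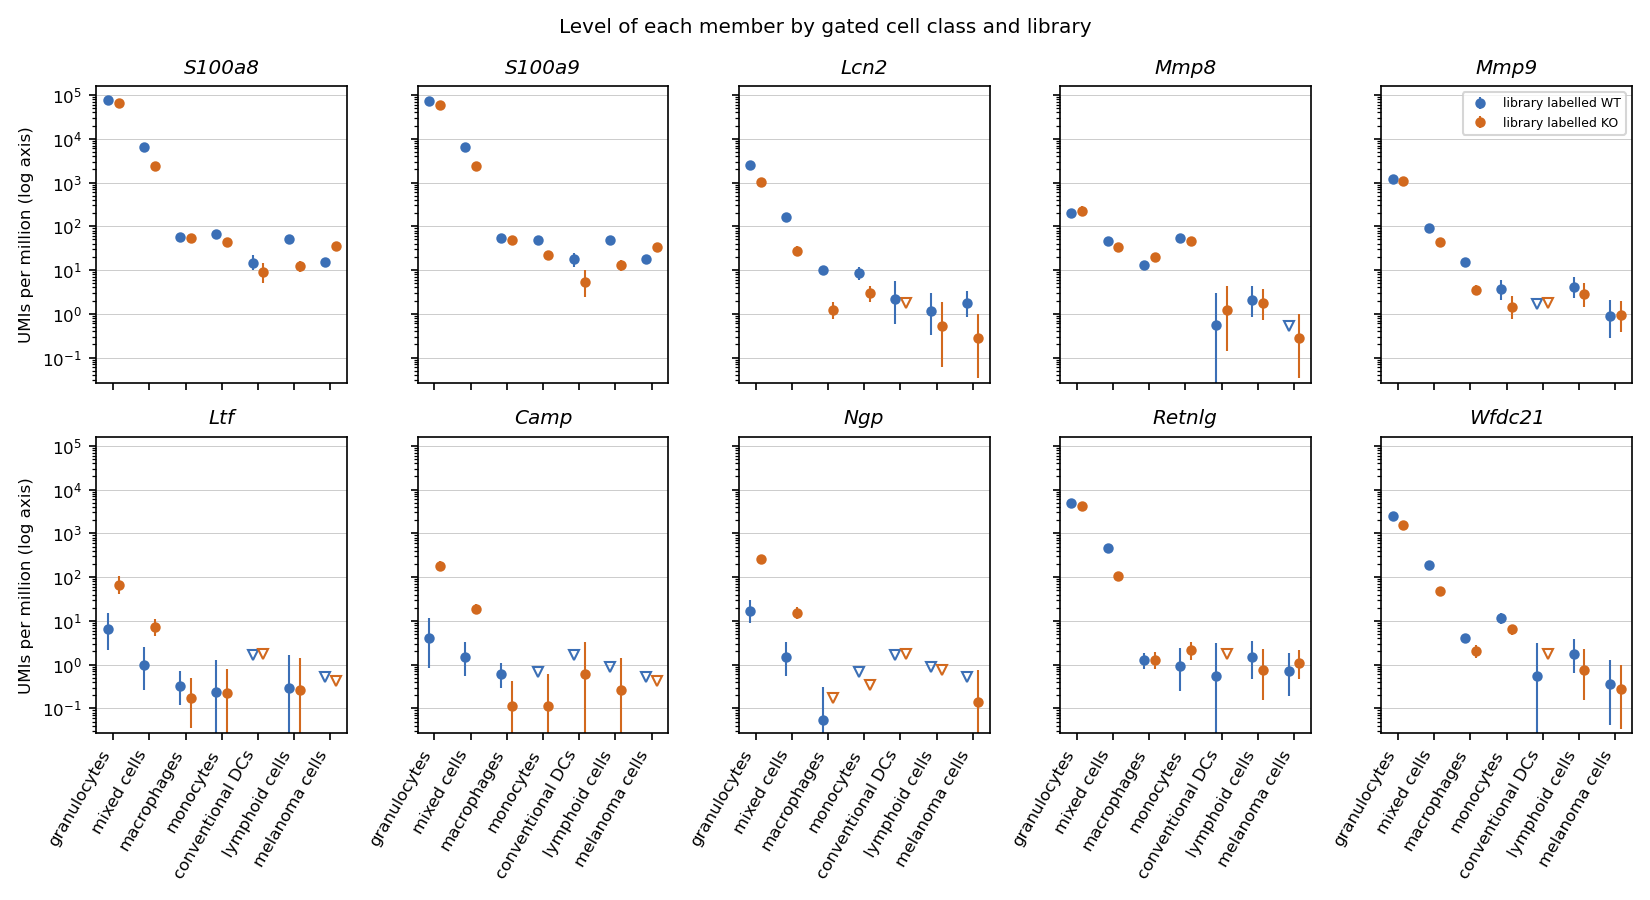
Level of each of the 10 members (CPM, log axis) in 7 cell classes of the library labelled WT (blue) and KO (orange), with exact Poisson 95% intervals; an open triangle marks a class with no UMI, drawn at the level of 3 UMIs. S100a8 and S100a9 stand between 58483 and 78307 in granulocytes and between 5.37 and 65.3 in macrophages, monocytes, dendritic, lymphoid and melanoma cells, while Mmp8 in monocytes is within 5-fold of its granulocyte level.

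S100a8 and S100a9, the calprotectin subunits, ranked first and second of all genes in the granulocytes of both libraries. UMI counts tag each molecule once at its 3′ end, so these levels need no division by transcript length. S100a8 stood at 78307 CPM (77677 to 78940) in granulocytes labelled WT and 67097 (66170 to 68035) in those labelled KO, and S100a9 at 73875 and 58483 CPM. A UMI of S100a8 was present in 91.9% of granulocytes labelled WT and 89.4% of those labelled KO, whose intervals overlap. The log2 ratios were -0.22 (-0.25 to -0.20) for S100a8 and -0.34 (-0.36 to -0.31) for S100a9, and neither reached 2-fold. After thinning to 1000 UMIs, the ratio of S100a8 was 0.04.

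Both subunits were present in near-equal numbers within single cells. Among the 481 granulocytes labelled WT with both genes, the median ratio of S100a8 to S100a9 UMIs was 1.03 (quartiles 0.82 and 1.27), and among 209 labelled KO it was 1.11 (0.90 and 1.39). Across granulocytes of 1 library their log-scaled levels had a Pearson r of 0.90 (540 cells) and 0.93 (245 cells), a description of cells that share a library and its depth range.

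The members' share of a cell's UMIs varied widely between the granulocytes of each library. This spread of single cells is no measure of a difference between the libraries. In the library labelled WT it ran from 0% to 50.4% with a median of 12.5% (quartiles 4.19% and 23.3%), and in the library labelled KO from 0% to 40.1% with a median of 11.9% (2.02% and 21.3%). Cells above 20% were 32.6% and 31.8% of granulocytes. At the low end, 11.3% of granulocytes labelled WT and 17.6% of those labelled KO had less than 1% of their UMIs in the members, and 14 and 20 cells had none. The share was lower in shallow cells: below the library's median depth the medians were 7.81% and 9.73%, and above it 18.6% and 17.5%.

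**Figure D2:**
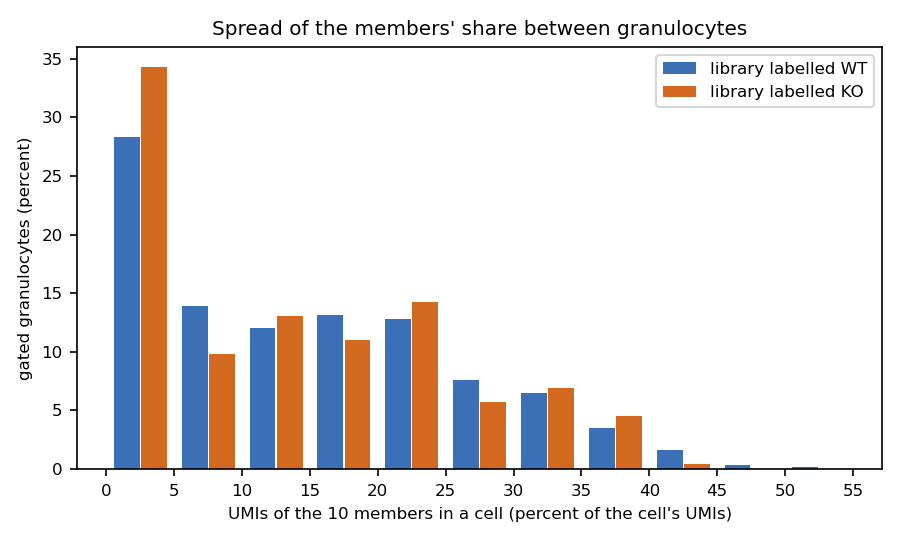
Gated granulocytes (percent of the class in each library, vertical axis) by the share of their UMIs that came from the 10 members (5-percent bins, horizontal axis) for 540 cells labelled WT (blue) and 245 labelled KO (orange). Both distributions are broad, with 28.3% and 34.3% of cells in the lowest bin. Beyond 40% lie a tail of cells labelled WT and 1 cell labelled KO.

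Retnlg, which encodes resistin-like gamma, ranked 16th and 15th of all genes by UMIs in granulocytes. Its level was 4879 CPM (4723 to 5040) labelled WT against 4162 (3934 to 4401) labelled KO, and the log2 ratio was -0.23 (-0.32 to -0.14). A UMI was seen in 56.1% and 54.3% of granulocytes, which divides the class. Granulocytes with Retnlg had more of most other members: S100a8 stood at 101737 CPM in the 303 with and 38728 CPM in the 237 without it (labelled WT), and at 103944 and 22181 CPM (labelled KO, 133 and 112 cells).

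The levels of Mmp8 and Wfdc21 also differed along this split, while that of Lcn2 was similar on both sides. Mmp8 was at 283 CPM with and 67.7 without Retnlg in the library labelled WT, and at 386 and 29.8 in the library labelled KO. Wfdc21 was at 3220 and 1304 CPM in cells labelled WT and at 2485 and 358 in cells labelled KO. Lcn2 was at 2378 with and 2864 without Retnlg in the library labelled WT, and at 1016 and 1052 in the library labelled KO. Cells with a Retnlg UMI were deeper (medians 1421 against 1128, and 1083 against 909.5 UMIs). With every cell thinned to 500 UMIs, S100a8 was still at 98835 against 46497 CPM and at 105965 against 34015 CPM, and Lcn2 at 2455 against 2859 and at 1133 against 1076. The share of cells with an Lcn2 UMI did differ along the split, at 40.9% against 25.8% labelled WT and 31.9% against 15.9% labelled KO at that depth. Of all Lcn2 UMIs in granulocytes, 10 cells held 26.1% and 49.2%.

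Lcn2, which encodes lipocalin 2, a protein that withholds iron from bacteria by binding their siderophores, was the 1 member more than 2-fold lower in granulocytes labelled KO. It stood at 2559 CPM (2446 to 2676, 1932 UMIs) against 1032 (920 to 1154, 307 UMIs), a log2 ratio of -1.31 (-1.49 to -1.14). A UMI was seen in 45.2% (40.9 to 49.5) of granulocytes labelled WT and 33.5% (27.6 to 39.8) of those labelled KO, at unequal depth. At matched depth the intervals overlapped, with 45.9% (41.0 to 50.8) and 38.8% (30.3 to 47.7) at 1000 UMIs per cell and 32.6% (28.7 to 36.7) and 23.3% (18.1 to 29.1) at 500. The highest cell had 62 of 1932 UMIs and 30 of 307. Among the 2748 genes that reached 50 CPM in 1 library or both, 1.89% lay 2-fold or more lower in granulocytes labelled KO, and 1 of the 10 members did. Of these members, Ltf, Camp and Ngp reached 50 CPM only in the library labelled KO and could not have been counted as lower.

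Wfdc21, a small protein of the whey acidic protein family, was also lower, by less than 2-fold. It stood at 2507 CPM (2396 to 2623) labelled WT and 1526 (1389 to 1674) labelled KO, a log2 ratio of -0.72 (-0.87 to -0.57), in 60% and 46.5% of granulocytes at unequal depth. At matched depth the intervals of these shares overlapped, with 62.2% (57.3 to 66.9) and 48.8% (39.9 to 57.8) at 1000 UMIs per cell and 43.0% (38.7 to 47.3) and 35.1% (29.1 to 41.4) at 500. In the library labelled KO, 1 cell held 52 of the 454 UMIs.

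Mmp9, the gelatinase of the last granules to form, differed little between the libraries. It had 1181 CPM (1105 to 1262) labelled WT against 1099 (984 to 1225) labelled KO, and the log2 ratio was -0.10 (-0.29 to 0.08), with a UMI in 54.3% and 53.5% of granulocytes. Mmp8, the neutrophil collagenase of the specific granules, was near 200 CPM in both, at 203 (172 to 237) labelled WT and 225 (175 to 286) labelled KO, a log2 ratio of 0.15 (-0.28 to 0.58). Both intervals include 0.

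Ltf (lactoferrin, which binds iron), Camp (the cathelicidin antimicrobial peptide) and Ngp (neutrophilic granule protein), contents of the specific granules, were rare in granulocytes labelled WT. They had 5, 3 and 13 UMIs there, or 6.62 CPM (2.15 to 15.5), 3.97 CPM (0.82 to 11.6) and 17.2 CPM (9.17 to 29.4), in 5, 1 and 11 of 540 cells. In granulocytes labelled KO they had 20, 54 and 78 UMIs, or 67.2 CPM (41.1 to 104), 182 CPM (136 to 237) and 262 CPM (207 to 327), in 2, 1 and 5 of 245 cells. The log2 ratios were 3.34 (1.89 to 5.11) for Ltf, 5.51 (3.89 to 7.84) for Camp and 3.93 (3.07 to 4.90) for Ngp, the 3 members more than 2-fold higher, where 5.68% of the 2748 genes were. All 3 reached the 50 CPM minimum only in the library labelled KO, so any of them that was counted had to be higher there, and nothing is read from the count.

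These higher levels came from 1 cell. A single granulocyte labelled KO, with 3632 UMIs, held 19 of the 20 Ltf, all 54 Camp and 74 of the 78 Ngp UMIs. It had 4 granulocyte markers, among them 1 UMI of Cxcr2, 38.0% of its UMIs in the members (641 S100a8, 484 S100a9, 20 Retnlg and 52 Wfdc21) and 1 UMI of Cebpe. The other 244 granulocytes labelled KO had 1 Ltf, 0 Camp and 4 Ngp UMIs, where a count of 0 allows up to 10.2 CPM, and Ngp then stood at 13.6 CPM (3.71 to 34.9) beside 17.2 in the library labelled WT.

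A further cell of this kind lay among the mixed cells labelled KO. It had 9848 UMIs, 4 granulocyte markers and 6 markers of another class, and held 16 Ltf, 55 Camp and 43 Ngp UMIs. Together these 2 cells held 261 of the 289 UMIs of the 3 genes in the library labelled KO. Granulocytes with a UMI of at least 2 of the 3 genes numbered 0 of 540 labelled WT, which allows a share of up to 0.556%, and 1 of 245 labelled KO (0.408%, 0.0103 to 2.25), so no difference in their share was detectable at this number of cells.

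**Figure D3:**
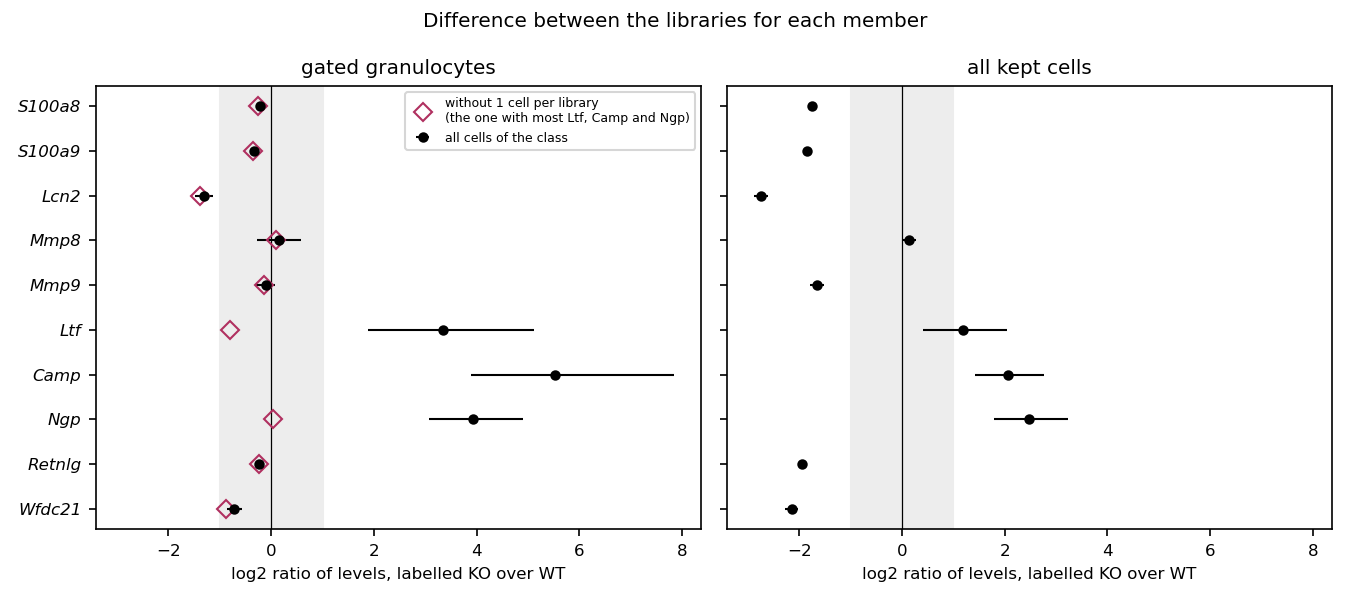
Log2 ratio of each member's level, library labelled KO over WT, in gated granulocytes (left) and over all kept cells (right), with exact 95% intervals for counting error (black); grey marks less than 2-fold. Open diamonds give the granulocyte ratio, with 1 CPM added, without the 1 cell per library that held most Ltf, Camp and Ngp (no diamond for Camp, then at 3 and 0 UMIs): Ltf and Ngp lose their higher level, Lcn2 stays below -1.

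Over the 10 members the median log2 ratio in granulocytes (1 CPM added to each level) was -0.16, with 6 below 0. The median over all 2748 genes was 0.12, and single genes ran from -0.70 to 1.04 between the 5th and 95th percentiles. The 10 include Ltf, Camp and Ngp, which reached 50 CPM only in the library labelled KO and were higher there through 1 cell. Without the top Ltf, Camp and Ngp cell of each library, the median was -0.25 (Camp got no ratio). Then 1 member (Lcn2) in place of 4 lay past 2-fold.

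Outside granulocytes the members differed in how far they lay below their granulocyte level. Lymphoid cells (T, NK, B and plasma cells), taken as the class to compare with, held 374 member UMIs labelled WT and 127 labelled KO, or 110 CPM (98.8 to 121) and 32.6 CPM (27.2 to 38.8). These levels were 0.067% and 0.024% of the granulocyte level, with a log2 ratio of -1.75 (-2.05 to -1.46), and 10 cells held 39.0% and 44.1% of the UMIs. The part of free RNA in them was not tested. S100a8 made up 46.8% (41.6 to 52.0) of the member UMIs of lymphoid cells labelled WT, beside 47.9% in granulocytes, and 37.8% (29.3 to 46.8) beside 50% in those labelled KO. Mmp9 made up more of them than in granulocytes, at 3.74% (2.06 to 6.20) beside 0.72% labelled WT and 8.66% (4.40 to 14.97) beside 0.82% labelled KO, and so did Mmp8, at 1.87% (0.76 to 3.82) beside 0.12% and 5.51% (2.24 to 11.03) beside 0.17%. Lymphoid cells thus held Mmp9 at 0.35% and 0.26% and Mmp8 at 1.01% and 0.80% of the granulocyte level, and S100a8 at 0.066% and 0.018%. A UMI of any member was seen in 23.3% (labelled WT) and 7.84% (labelled KO) of lymphoid cells.

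S100a8 in macrophages and monocytes labelled WT lay near the lymphoid level per UMI and above it per cell. It stood at 65.3 CPM in monocytes (57.9 to 73.4), 56.1 in macrophages (52.7 to 59.6) and 51.3 in lymphoid cells (44.0 to 59.5), neighbours whose intervals overlap. Conventional dendritic cells (14.8 CPM) and melanoma cells (15.1 CPM) were lower. At 1000 UMIs per cell, a UMI of S100a8 was seen in 4.76% of monocytes (3.44 to 6.40), 4.23% of lymphoid cells (2.93 to 5.89) and 6.18% of macrophages (5.06 to 7.47). Counted per cell, macrophages had 0.58, monocytes 0.32, lymphoid cells 0.21 and conventional dendritic cells 0.12 UMIs of S100a8, at median depths of 8323.5, 4148, 1523 to 2399.5 (over the lymphoid classes) and 7021 UMIs.

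In the library labelled KO macrophages (53.7 CPM, 50.4 to 57.3) and monocytes (44.1 CPM, 39.8 to 48.7) stood above lymphoid cells (12.3 CPM, 9.08 to 16.3). Few cells carried this: 10 of 2180 macrophages held 76.8% of their S100a8 UMIs, and 1 of them, with 4767 UMIs, held 183 of 939. Of 394 S100a8 UMIs in monocytes, 1 cell held 97 and 10 cells 58.6%. At 1000 UMIs per cell the shares with a UMI were 1.88% (1.33 to 2.59) of macrophages, 2.51% (1.897 to 3.26) of monocytes and 1.03% (0.47 to 1.94) of lymphoid cells. The intervals overlap, that of monocytes with that of lymphoid cells only between 1.897% and 1.94%. Melanoma cells (36.0 CPM) were likewise above lymphoid cells, with 117 of their 262 UMIs in 1 cell. Macrophages and monocytes together had 110 CPM of S100a8 and S100a9 labelled WT and 90.2 labelled KO, a log2 ratio of -0.29 (-0.37 to -0.21). Doublets left in the data raised this ratio to 0.15, and subtraction of the lymphoid level of each library (98.8 and 25.4 CPM) to 2.49, so its direction depended on these settings.

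Mmp8 had the highest monocyte level relative to its granulocyte level among the 10 members in both libraries. In monocytes it stood at 53.5 CPM (46.8 to 60.9) labelled WT and 46.2 (41.9 to 50.9) labelled KO, which is 26.4% and 20.5% of its granulocyte level, where S100a8 was at 0.083% and 0.066%. Macrophages had 12.96 CPM (11.4 to 14.7) and 20.3 CPM (18.2 to 22.5), and lymphoid cells 2.05 (0.82 to 4.23) and 1.80 (0.72 to 3.70), so the order of granulocytes, monocytes, macrophages and lymphoid cells held in both libraries without overlap of neighbouring intervals. It was spread over many cells: 153 of 892 monocytes labelled WT and 303 of 2274 labelled KO had a UMI, and the 10 highest held 21.2% and 11.1% of the UMIs.

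**Figure D4:**
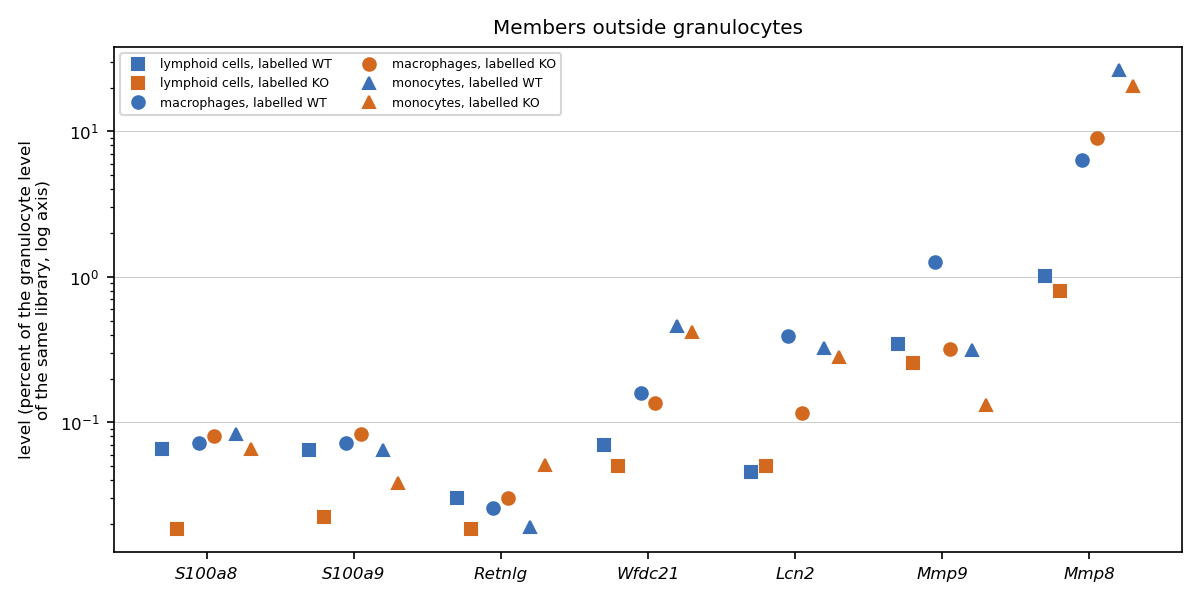
Level of 7 members in lymphoid cells (squares), macrophages (circles) and monocytes (triangles) as a percent of the granulocyte level of the same library (log axis), labelled WT (blue) and KO (orange). S100a8, S100a9 and Retnlg lie below 0.1%, Mmp8 in monocytes at 26.4% and 20.5%, and the Mmp9 point of macrophages labelled WT (1.27%) rests on 1 cell.

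At matched depth the contrast was the same. With 1000 UMIs per cell, Mmp8 was seen in 5.34% (3.94 to 7.06) of monocytes labelled WT and 4.88% (4.02 to 5.87) of those labelled KO, and in 0 of 780 and 0 of 877 lymphoid cells, which allows up to 0.385% and 0.342%. Mmp8 made up 27.9% and 36.7% of the member UMIs of monocytes but 0.12% and 0.17% of those of granulocytes. Of all Mmp8 UMIs, 153 of 879 labelled WT and 67 of 1092 labelled KO lay in gated granulocytes, and over all kept cells it stood at 21.0 and 23.1 CPM.

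In CPM, Wfdc21 and Lcn2 in monocytes also stood above the lymphoid level, at a far smaller share of their granulocyte level than Mmp8. At matched depth the shares of cells with a UMI were higher in monocytes too, in both libraries. Few cells had a UMI and the intervals overlapped, which does not show that the shares were equal. Wfdc21 was in monocytes at 11.6 CPM (8.59 to 15.3) labelled WT and 6.38 (4.83 to 8.26) labelled KO, which is 0.46% and 0.42% of its granulocyte level, beside 1.76 (0.65 to 3.83) and 0.77 (0.16 to 2.25) in lymphoid cells. Lcn2 was in monocytes at 8.34 CPM (5.84 to 11.5) and 2.91 (1.901 to 4.26), or 0.33% and 0.28%, and 1 monocyte labelled WT held 14 of 36 UMIs. At 1000 UMIs per cell, Wfdc21 was seen in 1.28% (0.64 to 2.27) of monocytes and 0.13% (0.0032 to 0.71) of lymphoid cells labelled WT, and in 0.59% (0.32 to 1.01) of monocytes and 0 of 877 lymphoid cells, which allows up to 0.342%, labelled KO. Lcn2 was seen in 0.70% (0.26 to 1.51) and 0.26% (0.031 to 0.92) labelled WT, and in 0.41% (0.19 to 0.78) and 0 of 877 labelled KO. In macrophages labelled WT it was at 10.1 CPM (8.68 to 11.6, in 50 of 1770 cells, 10 of which held 67.6% of the UMIs) and 1.202 CPM (0.74 to 1.84) in macrophages labelled KO, beside 1.17 (0.32 to 3.002) and 0.51 (0.062 to 1.85) CPM in lymphoid cells. At 1000 UMIs per cell the shares labelled WT, 0.93% (0.52 to 1.53) of macrophages and the 0.26% of lymphoid cells, had overlapping intervals too. The few fibroblasts held 39 Lcn2 UMIs in 10 cells labelled WT, 23 of them in 1 cell, and 8 in 14 cells labelled KO.

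Mmp9 in lymphoid cells was at 4.10 CPM (2.24 to 6.89) labelled WT and 2.82 (1.41 to 5.05) labelled KO, and macrophages without their top cell were not above these intervals. Of the 275 Mmp9 UMIs in macrophages labelled WT, 1 cell with 31675 UMIs held 242, and without it Mmp9 stood at 1.80 CPM (1.24 to 2.53), beside 3.26 CPM (2.47 to 4.23) in macrophages labelled KO without their own top cell. Retnlg was at 0.93 to 2.13 CPM in macrophages and monocytes of both libraries, and Ltf, Camp and Ngp were at 1 CPM or less.

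Mixed cells had 13824 CPM of the 10 genes labelled WT and 5001 CPM labelled KO. S100a8 made up 46.6% and 47.2% of their member UMIs, near its 47.9% and 50% in granulocytes, while Mmp8 made up more (0.34% and 0.66%, beside 0.12% and 0.17%) and Lcn2 less (1.16% and 0.56%, beside 1.56% and 0.77%). Kept in their highest-scoring class, they moved the S100a8 and S100a9 ratio of macrophages and monocytes to -1.91.

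Over all kept cells the members stood at 4434 CPM labelled WT against 1282 labelled KO, a log2 ratio of -1.79 (-1.80 to -1.78), in the direction of the share of granulocytes (9.99% and 3.21%). 6 members were lower by more than 2-fold: S100a8 (-1.75), S100a9 (-1.85), Lcn2 (-2.74), Mmp9 (-1.65), Retnlg (-1.94) and Wfdc21 (-2.15). Of these, S100a8 and S100a9 reached 50 CPM in both libraries. Lcn2, Retnlg and Wfdc21 reached it only in the library labelled WT, so any of them that was counted had to be lower labelled KO. Mmp9 reached it in neither and is not among the 3038 genes that reached it in 1 library or both. Of those 3038 genes, 0.362% lay 2-fold or more lower and 0.197% higher, with a median log2 ratio of 0.01. These shares had 1 CPM added to each level and the listed ratios had not, and nothing is read from the count of 6. Mmp8 was at 0.14 (0.01 to 0.27), and Ltf, Camp and Ngp were at 1.19, 2.07 and 2.48 through the 2 cells above. The shares of cells in 1 pooled library each carry the sort and the dissociation with them, so a genotype difference cannot be told apart from a difference between the preparations.

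Other genes of the granule programme were read in gated granulocytes from lists drawn up by function. Of 7 azurophil granule genes in the matrix (including Mpo, Elane and Ctsg, the first contents of the developing granules), none reached 50 CPM, and 5 had no UMI in either library. Of 19 other granule genes 13 reached 50 CPM, with 1 lower by 2-fold (Fpr1, a formyl peptide receptor, at -1.29), none higher and a median of -0.27. Beside this list and those that follow, 1.89% of all 2748 genes at 50 CPM in 1 library or both were lower by 2-fold and 5.68% higher. Slpi, a protease inhibitor, was at -0.64, Wfdc17 at -0.74 and Cybb, the NADPH oxidase subunit, at 0.88.

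Of 10 inhibitors and receptors of the member proteins 6 reached 50 CPM, with a median of 0.07. Lrp1, a scavenging receptor, and Cd36, a lipid receptor, were more than 2-fold higher labelled KO, at 1.84 (25 and 36 UMIs) and 3.57 (4 and 22 UMIs, in 4 and 9 cells), and both reached 50 CPM only in that library, which fixed their direction. Tlr4, the receptor of calprotectin, was at -0.09. None of 5 other S100 genes lay past 2-fold: S100a10 had the largest ratio (0.31, at 64.9 and 80.7 CPM), S100a11 stood at 4188 and 3487 CPM and S100a6 at 8955 and 8934. None of 6 granulopoiesis factors did, with Cebpb at -0.36 and Cxcr4 at 0.36 as the largest. Stfa2l1, Csf3r and Cxcr2 of these lists were also gate markers.

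Over 18 points (classes of at least 50 cells in each library) and 6205 genes, the levels most like those of S100a8 were those of S100a9 (Pearson r 0.98), E230032D23Rik (0.96), Osgin1, Gm5483 and Il1f9 (each 0.95). The levels most like those of Ltf were those of Ngp (0.99), Camp (0.98), Rab15 (0.95), Entpd3 (0.94) and Il1f9 (0.92). Ltf reached no more than 67.2 CPM at any point, and the likeness was not computed without the granulocyte labelled KO that held 19 of the 20 UMIs there. Mmp8 was with Camp the member least like S100a8, at 0.80 and 0.79. The points share libraries and are given as a description.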

How the data were processed

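Live CD45+ cells from B16 tumours had been captured with 10x Genomics reagents for 3′ ends (v3), as 1 library for each genotype. The authors deposited 1 matrix of raw UMI counts per gene and barcode for both libraries, made with Cell Ranger 4.0.0 (per the file headers) on mm10, with a table that assigned each barcode to a library. It held 31053 genes, 14341 barcodes and 100016286 UMIs, 45963969 labelled WT and 54052317 labelled KO. The genes and lists described here were chosen with earlier results of these data known.

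Barcodes with fewer than 200 genes or more than 10% mitochondrial UMIs were left out. Scrublet's own threshold marked 1 barcode in each library, so the highest scores were removed at a rate of 0.8% per 1000 barcodes (256 and 532). Cells were named from 11 marker lists that hold none of the 10 genes: each marker was scaled as log-transformed counts per 10000, capped at the 90th percentile, and averaged per list. The best list needed 2 detected markers and a lead of 1.25 over the next. Cells with 3 or more granulocyte markers and 3 or more of another list were set aside as mixed. These thresholds were set after seeing the data, and 10 and 16 granulocytes lay within a factor of 1.2 of the lead.

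UMIs of a class were summed within each library and divided by the class's UMIs (CPM). Intervals at 95% were exact Poisson for levels, exact Clopper-Pearson for shares and exact conditional binomial for log2 ratios. They cover counting error only, and with 1 library per genotype no test was made. Zero counts were given a limit of 3 counts. Counts of genes past 2-fold used genes that reached 50 CPM in 1 library or both, with 1 CPM added, and the script was tested on simulated data. Named genes were all 10 members, up to 4 genes of each functional list with the largest absolute log2 ratio among those at 50 CPM or more, the 5 genes most like S100a8 and Ltf, and others chosen after their values were seen (Mpo, Elane, Ctsg, Tlr4 and S100a6). Alternatives were another gate, Leiden clusters (resolution 1, scanpy 1.11.5, leidenalg 0.10.2), doublets or all barcodes kept, thinning to 1000 UMIs, per-cell means, the members left out of the total, the top cell left out, the lymphoid level subtracted and centring on the median gene. Added after seeing the data were thinning to 500 UMIs, mixed cells kept, and the top Ltf, Camp and Ngp cell left out. Python 3.11.15 and scipy 1.17.1 were used.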

Additional observations from a re-analysis of the deposited data

Results flagged for a closer look

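Barcodes left out of the kept cells carried the members too, and entered only the alternatives that kept doublets or all barcodes. The 490 left-out barcodes labelled WT had 25431 member UMIs, or 6211 CPM (6135 to 6288), and the 821 labelled KO had 15533, or 2289 CPM (2253 to 2326), above the limit of 3 counts in both. The level in barcodes removed as doublets (6364 and 2294.5 CPM) and in those removed for few genes or many mitochondrial UMIs (4215 and 2190 CPM) stood beside 4434 and 1282 CPM over all kept cells.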

How the results depend on the processing

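All values here are log2 ratios, KO over WT, unless stated otherwise. The lower level of Lcn2 in granulocytes kept its direction in 13 of 13 alternatives (-1.43 to -1.11), as did that of Wfdc21 (-0.87 to -0.47) and of S100a9 (-0.46 to -0.09). The summed level in granulocytes (-0.29) kept its sign in 11 of 11 but not its size: -0.14 with a stricter gate, -0.10 with Leiden clusters, -0.24 with doublets kept, -0.25 with all barcodes, -0.038 and -0.11 thinned to 1000 and 500 UMIs, -0.12 as a per-cell mean, -0.34 with the members left out of the total, -0.31 without the top cell and -0.30 with mixed cells kept. The median member (-0.16) was -0.0083 with a stricter gate and -0.32 without the top cell, and changed sign with Leiden clusters (0.049), at 1000 UMIs (0.035) and as a per-cell mean (0.033). S100a8 at 1000 UMIs was 0.035, and Retnlg was 0.11 there and 0.031 as a per-cell mean. Without the top cell of each class, Ltf was -0.80 and Ngp -0.32, the share of granulocytes with 2 of the 3 genes differed by 0 percentage points in place of 0.41, and 1 member in place of 4 lay past 2-fold. Leaving out the cell with most Ltf, Camp and Ngp gave -0.80 for Ltf, 0.03 for Ngp and likewise 0 percentage points and 1 member, and Camp (3 and 0 UMIs) got no ratio. Without a minimum level, 23.6% of 11874 genes lay 2-fold lower and 17.4% higher, beside the same 4 members.

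Over all kept cells (-1.79) the ratio was -1.71 with doublets kept, -1.70 with all barcodes, -2.13 at 1000 UMIs, -1.73 as a per-cell mean and -1.87 without the top cells. In lymphoid cells (-1.75) it was -1.16 with the stricter gate, -1.41 with Leiden clusters, -2.09 at 1000 UMIs and -2.15 as a per-cell mean. S100a8 and S100a9 in macrophages and monocytes (-0.29) were at -0.20, -0.065, -0.54 and -0.75 under those settings in the same order, -0.66 without the top cells, -1.91 with mixed cells kept, and changed direction with doublets kept (0.15), all barcodes (0.15) and the lymphoid level subtracted (2.49). The cause was not tested. With 1 library per genotype, biological spread is unknown. Granulocytes had medians of 1284 and 1039 UMIs, and the values of Mmp8, Ltf, Camp and Ngp rest on few UMIs. No paired analysis was possible because each genotype has 1 library.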
